A study of Saccharomyces cerevisiae with 16 samples.

Results

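The genes described here are 9 transcripts of Saccharomyces cerevisiae (budding yeast) that were induced by benomyl in the wild type and whose induction was lower in a strain lacking Yap1, and whose products are, for the most part, poorly studied. They are FRM2 (YCL026C-A), OSI1 (YKL071W), YLL056C, SDL1 (YIL167W), YLR108C, LTO1 (YNL260C), SNG1 (YGR197C), AFG1 (YEL052W) and CIS1 (YLR346C); the systematic name in brackets encodes the chromosome, the arm and the strand of the gene. They were taken by name, with no numerical threshold, and make up 9 of 6321 measured features, of which 5611 carry a gene name. Each had 1 probe and a value on every array. The genes were chosen by their measured responses in the wild type and in the YAP1 deletion, so those values, and the differences between these strains, are given for the 9 genes as a description without a test.

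Benomyl is a fungicide that binds tubulin and depolymerises microtubules, and it is also an inducer of drug resistance genes in yeast. The cells compared carried a deletion of YAP1, a deletion of PDR1, or neither deletion (wild type, WT). Each array set RNA from drug-treated cells of a strain against RNA from untreated cells of that strain, at 30 s and at 2, 4, 10 and 20 min, with a further array at 40 min for WT. There were thus 5 arrays of the YAP1 deletion, 5 of the PDR1 deletion and 6 of WT, with 1 array for each strain and time; the genetic background, the drug dose and the number of clones behind each deletion are not given in the sources used here. Values are log2 ratios of treated over untreated cells, a direction taken from which channel the labels list as drug-treated; 1 log2 unit is a 2-fold change.

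Yap1 is a bZIP transcription factor that accumulates in the nucleus when its cysteines are oxidised or modified by electrophiles, and there it activates genes of glutathione and thioredoxin metabolism, oxidoreductases and the exporters FLR1 and ATR1. Pdr1 is a zinc cluster factor that, with Pdr3, binds drugs directly and activates ABC transporter genes such as PDR5 and SNQ2. The promoters of some drug response genes are bound by factors of both kinds, and deleting each regulator shows how much of a gene's response remains without it.

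The arrays held between 3450 and 6128 values each, the fewest on the PDR1 deletion array at 2 min, and every array was centred on its mean (means from -0.00120 to 0.00047). The PDR1 deletion arrays stood apart in form. They held 157 to 317 distinct values, against 865 to 1292 in the YAP1 deletion and 909 to 2018 in WT. Large ratios are rounded too coarsely to be placed on a grid and were left out of this check. Shares are of distinct values, at the best of many trial offsets of the grid. The shares by chance do not allow for that choice of offset. Of the remaining distinct PDR1 deletion values, 100% fell on a regular grid of linear ratios when read as base 2, against 23.1% to 26.8% by chance. With natural logarithms 36.5% to 58.7% did, against 25.4% to 32.4% by chance. The YAP1 deletion arrays had 24.8% to 27.6% of distinct values on the base 2 grid (21.3% to 23.1% by chance). The WT arrays had 21.9% to 29.9% (18.9% to 23.0% by chance). Shares above chance also arose on these arrays with natural and base 10 logarithms. They do not settle their own base and were taken as log2 too, so their folds, and differences from WT, rest on that reading. Small PDR1 deletion ratios are coarse and repeat between genes, and this difference in form cannot be told apart from the deletion itself. The labels of the strains could not be checked on the deleted genes, because a ratio within a strain compares the deleted gene with itself: the YAP1 probe had values on 5 of 5 YAP1 deletion arrays (-0.06 to 0.29) and lay between -0.18 and 0.40 in WT, and the PDR1 probe had a value on 1 of 5 PDR1 deletion arrays (0.39) and lay between -0.20 and 0.26 in WT.

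A 2-fold increase on at least 1 array was reached by 2 of the 9 genes in the YAP1 deletion, SNG1 and CIS1, by 8 in the PDR1 deletion and by 8 in WT. The share of all features that reached it was not counted, and WT had 1 more array. The spread of all ratios also differed, with standard deviations of 0.17 to 0.30 in the YAP1 deletion. They were 0.19 to 0.41 in the PDR1 deletion and 0.20 to 0.59 in WT. At 10 min the median of the 9 genes was 0.04 in the YAP1 deletion, 1.99 in the PDR1 deletion and 3.27 in WT, while the medians of all measured features on these arrays lay between -0.04 and -0.02. The exception to a strong response was LTO1, which peaked at 1.94-fold in WT, and YLR108C was near the same mark at 2.33-fold. Of the 9, LTO1 and AFG1 have described molecular roles, so the description of the genes as poorly studied does not hold for them.

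**Figure D1:**
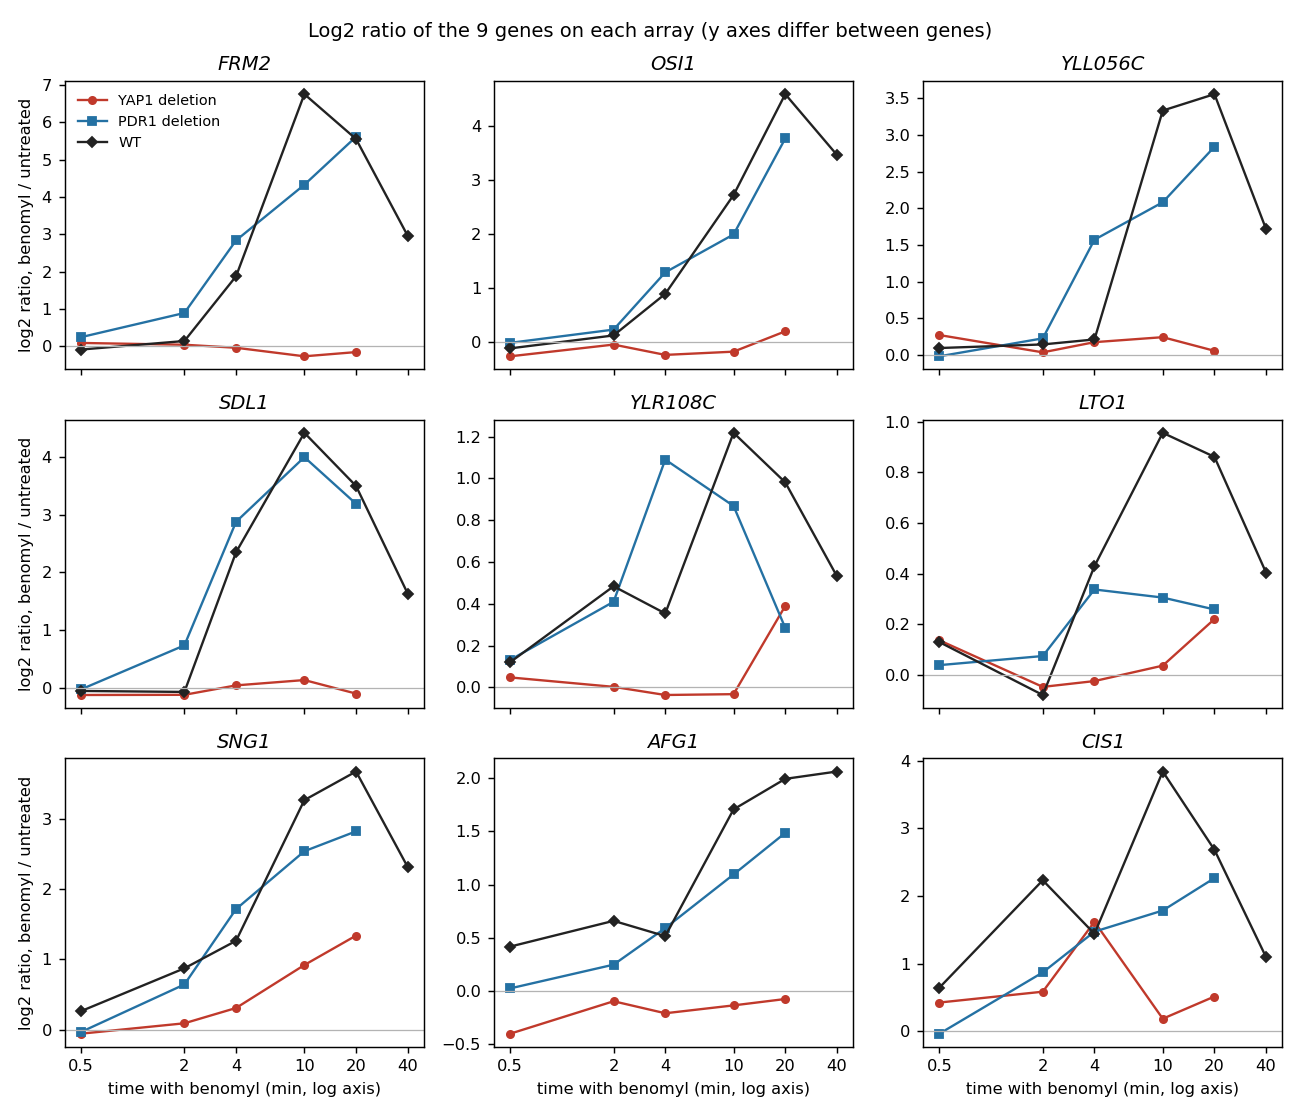
Log2 ratio of benomyl-treated over untreated cells (y axis, scale differs between panels) against time with benomyl in minutes (x axis, log scale) for each of the 9 genes, with 1 point per array: YAP1 deletion in red circles, PDR1 deletion in blue squares, WT in black diamonds. The YAP1 deletion stays near 0 for 7 of the genes, SNG1 reaches 1.34 at 20 min and CIS1 1.62 at 4 min, while FRM2 reaches 5.61 in the PDR1 deletion and 6.75 in WT.

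The panels of time courses show the same values as the sentences that follow, in which the log2 ratios of each gene run from 30 s through 2, 4 and 10 to 20 min, and to 40 min in WT. SNG1 and CIS1, the members that reached 2-fold in the YAP1 deletion, come last.

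FRM2 encodes a nitroreductase-like protein linked to fatty acid signalling and the oxidative stress response. Its log2 ratios were 0.09, 0.04, -0.04, -0.27 and -0.16 in the YAP1 deletion, 0.24, 0.89, 2.84, 4.33 and 5.61 in the PDR1 deletion, and -0.09, 0.14, 1.88, 6.75, 5.55 and 2.96 in WT. At 10 min it had the highest ratio of all 5018 features measured on that WT array, a 108-fold increase, while the YAP1 deletion stayed at or below 0.09 on every array. The PDR1 deletion was above WT on the arrays up to 4 min and was highest at 20 min, with 5.61 against 5.55 in WT.

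SDL1 resembles L-serine dehydratases, and its reading frame is interrupted in the reference strain, where RefSeq lists it as a pseudogene. SDL1 had log2 ratios of -0.12, -0.11, 0.05, 0.14 and -0.09 in the YAP1 deletion, -0.02, 0.74, 2.88, 3.99 and 3.19 in the PDR1 deletion, and -0.05, -0.06, 2.35, 4.41, 3.49 and 1.63 in WT. The transcript was highest at 10 min in the PDR1 deletion and in WT, and it stayed within 0.15 of 0 in the YAP1 deletion.

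OSI1, named for its induction by oxidative stress, and YLL056C, whose transcription is known to respond to the drug resistance factors Yrm1 and Yrr1, have no established function. For OSI1 the ratios were -0.27, -0.05, -0.24, -0.18 and 0.19 in the YAP1 deletion, -0.02, 0.23, 1.29, 1.99 and 3.76 in the PDR1 deletion, and -0.12, 0.12, 0.89, 2.72, 4.58 and 3.46 in WT. For YLL056C they were 0.27, 0.04, 0.17, 0.24 and 0.06 in the YAP1 deletion, -0.02, 0.23, 1.57, 2.08 and 2.84 in the PDR1 deletion, and 0.09, 0.14, 0.21, 3.33, 3.56 and 1.72 in WT. OSI1 had its highest value at 20 min in the PDR1 deletion and in WT. YLL056C was 1.57 at 4 min in the PDR1 deletion, when WT was still at 0.21, and it was then the higher in WT at 10 and 20 min.

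AFG1 encodes a mitochondrial ATPase of the AAA family that takes part in the quality control of respiratory chain subunits. On the arrays AFG1 read -0.40, -0.10, -0.21, -0.14 and -0.08 in the YAP1 deletion, 0.02, 0.25, 0.59, 1.10 and 1.49 in the PDR1 deletion, and 0.42, 0.66, 0.52, 1.71, 1.99 and 2.06 in WT. Every YAP1 deletion array was below 0 and every WT array above 0. It was the only member whose WT ratio was highest at 40 min.

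LTO1 encodes an adaptor that, with Yae1, brings iron-sulphur clusters to the ribosome recycling factor Rli1. LTO1 gave 0.14, -0.05, -0.03, 0.04 and 0.22 in the YAP1 deletion, 0.04, 0.07, 0.34, 0.31 and 0.26 in the PDR1 deletion, and 0.13, -0.08, 0.43, 0.96, 0.86 and 0.40 in WT. YLR108C has no known function. It gave 0.05, 0.00, -0.04, -0.03 and 0.39 in the YAP1 deletion, 0.13, 0.41, 1.09, 0.87 and 0.29 in the PDR1 deletion, and 0.12, 0.48, 0.35, 1.22, 0.98 and 0.53 in WT. In these weakly responding genes the deletion strains were close at 20 min: LTO1 was 0.22 in the YAP1 deletion and 0.26 in the PDR1 deletion, against 0.86 in WT, and YLR108C was 0.39 in the YAP1 deletion and 0.29 in the PDR1 deletion, against 0.98 in WT.

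SNG1 encodes a membrane protein that confers resistance to nitrosoguanidine. Its values were -0.06, 0.09, 0.31, 0.92 and 1.34 in the YAP1 deletion, -0.03, 0.64, 1.72, 2.54 and 2.83 in the PDR1 deletion, and 0.26, 0.87, 1.27, 3.27, 3.68 and 2.32 in WT. SNG1 kept the most late response without Yap1: its mean over 10 and 20 min was 1.13 (2.19-fold) in the YAP1 deletion, 2.68 (6.42-fold) in the PDR1 deletion and 3.47 (11.1-fold) in WT. The other 8 genes had late means between -0.21 and 0.35 in the YAP1 deletion.

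CIS1 encodes a small protein named for the sensitivity of its deletion to the mycotoxin citrinin, and it is a known target of drug resistance regulators. CIS1 read 0.43, 0.59, 1.62, 0.19 and 0.52 in the YAP1 deletion, -0.03, 0.87, 1.47, 1.79 and 2.27 in the PDR1 deletion, and 0.65, 2.23, 1.44, 3.84, 2.68 and 1.10 in WT. It was the earliest of the 9 in WT, ranking 3 of 5621 features at 2 min. At 4 min CIS1 had 1.62 in the YAP1 deletion, rank 5 of 5672 features on that array, against 1.44 in WT, and by 10 min the YAP1 deletion was back at 0.19 against 3.84 in WT. The WT ratio dipped between 2 and 4 min, as it did by less for AFG1 (0.66 and 0.52) and YLR108C (0.48 and 0.35), and each value is a single array.

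The start of the response was described as the time from which a gene was at a log2 ratio of at least 1 on that array and the next. No gene met this in the YAP1 deletion, 7 of 9 did in the PDR1 deletion and 7 of 9 in WT; YLR108C and LTO1 did so in no strain. In the PDR1 deletion 6 genes started at 4 min (FRM2, SDL1, OSI1, YLL056C, SNG1 and CIS1) and AFG1 at 10 min. In WT CIS1 started at 2 min, FRM2, SDL1 and SNG1 at 4 min, and OSI1, YLL056C and AFG1 at 10 min. With a threshold of 0.5, 2 genes had a start in the YAP1 deletion, CIS1 at 2 min and SNG1 at 10 min, against 8 in the PDR1 deletion and 9 in WT. The share of all features with a start was not counted at either threshold. These counts are therefore a description of the 9 genes only, and the WT and YAP1 deletion values had chosen them.

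In WT 5 of the genes were highest at 10 min, 3 at 20 min and AFG1 at 40 min. The WT log2 ratio at 40 min minus that at 20 min was -2.59 for FRM2, -1.86 for SDL1, -1.84 for YLL056C, -1.59 for CIS1, -1.36 for SNG1 and -1.12 for OSI1. It was -0.46 for LTO1, -0.45 for YLR108C and 0.07 for AFG1. OSI1, with 3.46, was the highest of the 9 at 40 min and FRM2, with 2.96, came next; no deletion strain was measured at that time.

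Averaged over 10 and 20 min, the difference YAP1 deletion minus WT, on the log2 scale, was -6.36 for FRM2, -3.93 for SDL1, -3.64 for OSI1, -3.30 for YLL056C, -2.91 for CIS1, -2.34 for SNG1, -1.96 for AFG1, -0.92 for YLR108C and -0.78 for LTO1. The genes fell in the same order by this difference as by their WT level, except SNG1, which stood above YLL056C and CIS1 in WT (means of 3.47, 3.45 and 3.26). That order is largely fixed by the subtraction, because the YAP1 deletion means of the genes other than SNG1 lay near 0. At 10 min and at 20 min 9 of 9 genes were lower in the YAP1 deletion than in WT, as the choice of the genes implies. Of all features, 48.6% and 44.5% were lower at these times. At 4 min 8 of the 9 genes were lower, when 50.1% of all features were. SDL1 (-2.30), FRM2 (-1.92) and OSI1 (-1.13) were furthest, YLL056C was close to 0 (-0.04) and CIS1 was higher (0.18).

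**Figure D2:**
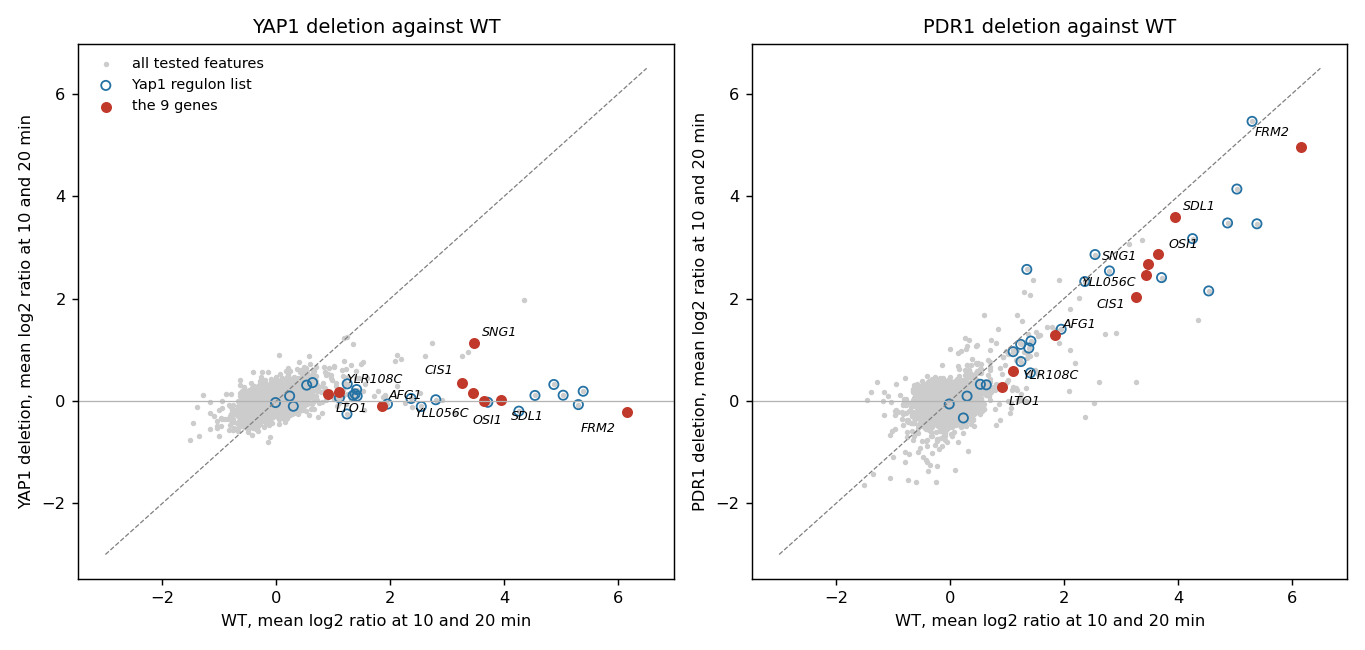
Mean log2 ratio over the 10 and 20 min arrays in the YAP1 deletion (left, y axis) and in the PDR1 deletion (right, y axis) against the same mean in WT (x axis); grey points are all tested features, open circles the list of known Yap1 targets and filled red points the 9 genes, and the dashed line marks equal ratios. In the YAP1 deletion the 9 genes lie along 0, with SNG1 highest at 1.13, and in the PDR1 deletion they lie below the line, with differences between -1.24 (CIS1) and -0.36 (SDL1) log2 units.

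The PDR1 deletion arrays asked whether these genes still responded without Pdr1. Over 2, 4, 10 and 20 min, 8 of the 9 genes were induced in the PDR1 deletion by limma with Benjamini-Hochberg adjustment over 4324 features. Of all tested features, 2.8% were called up in this comparison, and the median response was 1.68 for the 9 genes and -0.01 for all features. The genes were chosen with earlier results of these data known, and the WT and YAP1 deletion arrays that chose them share in the spread. Calls for the 9 genes in the PDR1 deletion are therefore not independent evidence. The test had 1 array per time, so the 4 times of a strain serve as its replicates. Time was a block, so a p-value rests on departures from a time course shared by the strains, pooled over all of them. It does not measure the spread over cultures.

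FRM2 had the largest mean response of the 9 in the PDR1 deletion, 3.42 ± 0.60 log2 (SE, adjusted p = 0.00751). SDL1 followed with 2.70 ± 0.34 (adjusted p = 0.00149). SNG1, at 1.93 ± 0.18, had the smallest adjusted p of all features, 0.000498. OSI1 (1.81 ± 0.35), YLL056C (1.68 ± 0.36) and CIS1 (1.60 ± 0.30) rose by similar amounts, with adjusted p of 0.0138, 0.0203 and 0.0127. AFG1 rose by 0.85 ± 0.15 (adjusted p = 0.00674) and YLR108C by 0.66 ± 0.14 (adjusted p = 0.0227). LTO1 did not pass, at 0.24 ± 0.10 (adjusted p = 0.175).

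These calls leaned on the later arrays and on the spread shared between strains. Of the 9 genes, 3 were called when the 20 min arrays were left out, 4 when those at 10 min were left out and 5 when those at 4 min were. Leaving out the PDR1 deletion array at 2 min, the one with the fewest values, left 6. With the spread estimated from the strain alone 1 was called, CIS1, and the other 7 had adjusted p between 0.0666 and 0.0993. The number of all features called up also fell under each of these settings, as listed with the processing checks at the end.

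When 10 and 20 min were fitted apart from 2 and 4 min, 7 of the 9 genes were induced in the PDR1 deletion at the late times, where 2.08% of features were called up. Their mean log2 responses were 4.97 ± 0.37 for FRM2, 3.59 ± 0.29 for SDL1, 2.87 ± 0.25 for OSI1, 2.68 ± 0.14 for SNG1, 2.46 ± 0.21 for YLL056C, 2.03 ± 0.30 for CIS1 and 1.29 ± 0.12 for AFG1. YLR108C (0.58 ± 0.17, adjusted p = 0.106) and LTO1 (0.28 ± 0.11, adjusted p = 0.204) did not pass. Without the 20 min arrays the call for CIS1 was lost (adjusted p = 0.103), and the other 6 were still called.

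Whether the response without Pdr1 differed in size from that of WT was asked with the difference of the strains. The genes were chosen on their WT responses, which are also shared with the YAP1 deletion differences above, and that choice favours lower values outside WT. The differences are therefore given as a description, with no test for the 9 genes. Over 2 to 20 min limma called 0% of all features lower, and 622 of 4324 had an unadjusted p under 0.05. PDR1 deletion minus WT was -0.16 for FRM2 with a 95% interval from -2.02 to 1.69. For SDL1 it was 0.15 (-0.90 to 1.20), for OSI1 -0.26 (-1.34 to 0.82) and for YLL056C -0.13 (-1.23 to 0.96). The narrower intervals were those of YLR108C (-0.54 to 0.35), LTO1 (-0.62 to 0.02), AFG1 (-0.82 to 0.09) and SNG1 (-0.88 to 0.20). CIS1 had the lowest value, -0.95 (-1.88 to -0.02). The intervals are not adjusted for the number of features and use the WT values that chose the genes. An interval that leaves out 0 is therefore not a call.

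At 10 and 20 min, the times at which the WT values of the chosen genes were highest, limma called 0.185% of all features lower. For the 9 genes the values were -1.24 ± 0.42 for CIS1, -1.18 ± 0.53 for FRM2, -0.98 ± 0.29 for YLL056C, -0.79 ± 0.19 for SNG1 and -0.77 ± 0.35 for OSI1. LTO1 (-0.63 ± 0.16), AFG1 (-0.56 ± 0.17), YLR108C (-0.52 ± 0.25) and SDL1 (-0.36 ± 0.41) followed. The FRM2 and CIS1 values rested on the 10 min arrays: FRM2 was -2.43 at 10 min and 0.06 at 20 min, and CIS1 was -2.05 at 10 min and -0.42 at 20 min.

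**Figure D3:**
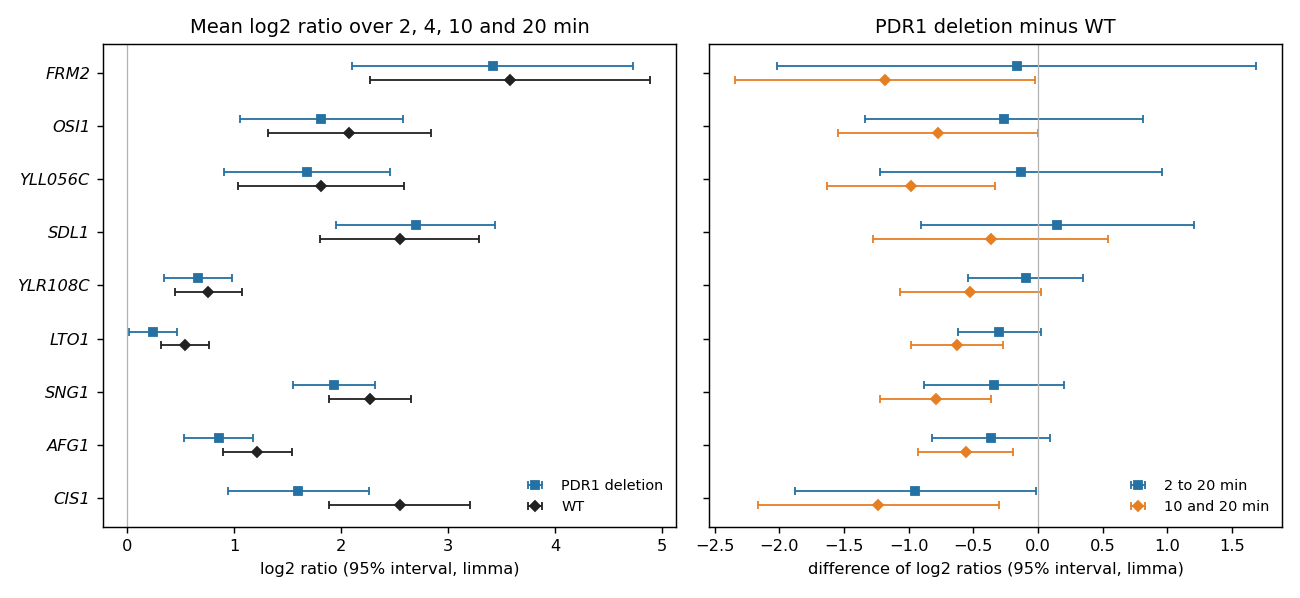
Left, mean log2 ratio over 2, 4, 10 and 20 min (x axis) of each of the 9 genes in the PDR1 deletion (blue squares) and in WT (black diamonds). Right, the difference PDR1 deletion minus WT on the log2 scale (x axis) over 2 to 20 min (blue squares) and over 10 and 20 min (orange diamonds); bars are 95% intervals from limma. The intervals are not adjusted for the number of features, and those that use WT are no test, because WT values chose the genes. On the left the intervals of the strains overlap for each gene, which does not show that the strains are alike. On the right the late differences lie between -1.24 (CIS1) and -0.36 (SDL1).

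Time by time, PDR1 deletion minus WT of most genes differed in sign between 4 and 10 min. At 4 min 8 of the 9 genes were higher in the PDR1 deletion, with a median of 0.45, when 52.2% of all features were higher and their median was 0.02. YLL056C (1.36), FRM2 (0.96) and YLR108C (0.74) were furthest above WT then, and LTO1 (-0.09) was below it. At 10 min 9 of 9 were lower (median -0.73) when 48.7% of all features were lower, led by FRM2 (-2.43), CIS1 (-2.05) and YLL056C (-1.25). At 20 min 8 of 9 were lower (median -0.60) when 47.5% of all features were, with SNG1 (-0.85) and OSI1 (-0.82) furthest. At 2 min 5 were higher and 4 lower, close to the 54.2% of all features that were higher, the extremes being SDL1 (0.80) and CIS1 (-1.36). The choice of the genes on WT values favours lower values outside WT here too. The standard deviation of all ratios was 0.26 in the PDR1 deletion and 0.27 in WT at 4 min. It was 0.31 and 0.40 at 10 min, and 0.41 and 0.54 at 20 min. How far the late differences go with this narrower spread was not tested.

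**Figure D4:**
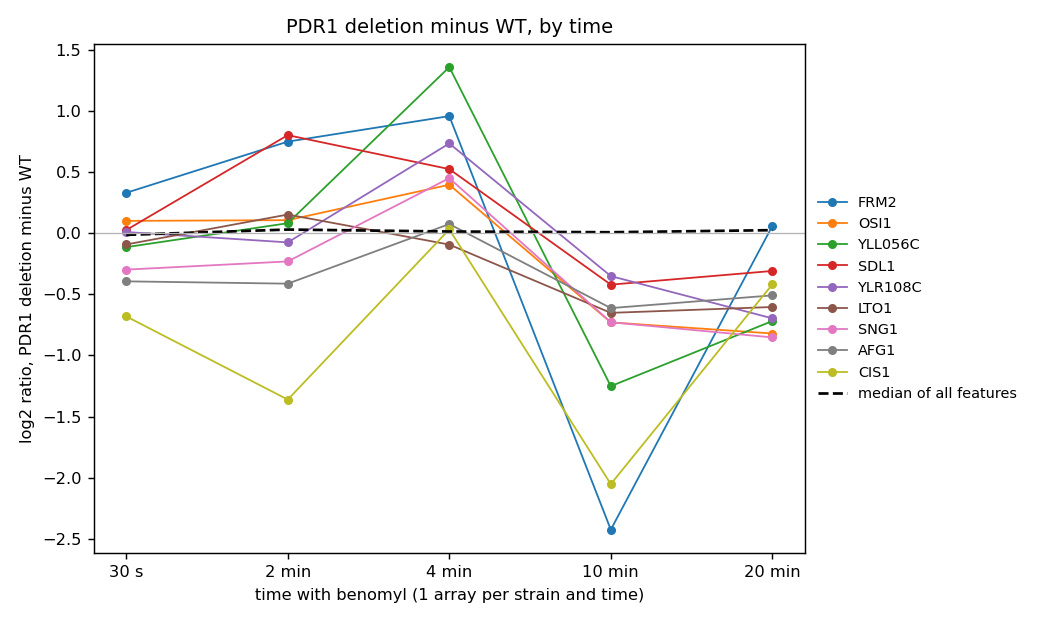
Difference of log2 ratios, PDR1 deletion minus WT (y axis), at each time shared by the strains (x axis, evenly spaced), 1 line per gene and 1 array per strain and time; the dashed line is the median of all features. The lines lie mostly above 0 at 4 min and below 0 at 10 and 20 min, where FRM2 moves between -2.43 and 0.06.

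The change of the difference from the 2 and 4 min arrays to the 10 and 20 min arrays was computed after these values had been seen and uses the WT arrays that chose the genes, so it too is a description with no test. It ran from -2.04 (FRM2) to -0.39 (AFG1); of all features, limma called 0.139% in that direction.

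Known Yap1 targets were set beside the 9 genes as a list of 25 that holds none of them, of which 23 were tested. The list was drawn up with results of these data known, so its counts are a setting for the 9 genes and not independent evidence. At 10 and 20 min 18 of the 23 were lower in the YAP1 deletion than in WT by limma, where 1.27% of features were called lower, and the median difference was -1.49 against 0.03 for all features. FLR1, an exporter whose activity confers benomyl resistance, differed by -5.37, the reductase-like YCR102C by -5.20 and YML131W by -4.92, while the peroxidase genes CCP1 (-0.02), TSA1 (-0.14) and AHP1 (-0.22) lay near 0. FRM2, at -6.36, lay beyond every gene of the list, the differences of SDL1, OSI1, YLL056C, CIS1, SNG1 and AFG1 lay between its lowest value and its median, and YLR108C and LTO1 lay nearer 0 than its median. In WT 19 of the 23 targets were called up at these times, where 4.49% of features were, with a median of 1.42 against -0.04.

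In the PDR1 deletion 17 of the 23 Yap1 targets were called up at 10 and 20 min, with a median of 1.40, and FLR1 (5.46), YML131W (4.14) and the methylglyoxal reductase GRE2 (3.48) were highest. TSA1 (-0.33), CCP1 (-0.06) and the glutathione synthetase GSH2 (0.09) were lowest. Against WT, the late difference had a median of -0.32 in the list. The old yellow enzyme OYE3 was called higher (1.22 ± 0.22, adjusted p = 0.0496) and the glutathione transferase ECM4 lower (-2.39 ± 0.26, adjusted p = 0.00252) in the PDR1 deletion; YCR102C (-1.92) and GRE2 (-1.39) were next lowest and did not pass. By time, 11 of 23 targets were higher than WT at 2 min (median -0.03) and 14 of 23 at 4 min (median 0.05), while 20 of 22 were lower at 10 min (median -0.51) and 17 of 22 at 20 min (median -0.30).

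Of 12 Pdr1 and Pdr3 targets, listed with the same knowledge, 8 were tested. At 10 and 20 min limma called 2 of them up in the PDR1 deletion, against 2.08% of all features: the ABC transporter gene SNQ2 (1.80, adjusted p = 0.00217) and IPT1 (0.70, adjusted p = 0.00577), which acts in sphingolipid synthesis. The transporter gene YOR1 had 0.74 and did not pass (adjusted p = 0.0766). None passed for PDR1 deletion minus WT, where the median was -0.39 and the lowest were ICT1 (-1.19), PDR5 (-1.08) and TPO4 (-0.91), and IPT1 was highest at 0.40. PDR5, the main drug efflux pump gene, had 0.29 at 10 min in the PDR1 deletion and 1.53 in WT. SNG1 and CIS1 kept late responses of 2.68 and 2.03 in the PDR1 deletion, and the highest of the 8 was that of SNQ2.

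Among the regulators themselves, YAP1, YRR1 and YRM1, 3 of 6, were tested. YRR1, the drug resistance factor known to act on YLL056C and CIS1, had 0.37 and -0.72 at 10 and 20 min in the YAP1 deletion, 1.29 and 1.27 in the PDR1 deletion, and 2.08 and 1.001 in WT. At these times it was called up in the PDR1 deletion (1.28 ± 0.17, adjusted p = 0.00104), and its YAP1 deletion minus WT difference was -1.71 ± 0.24 (adjusted p = 0.00324). YRM1, the other factor known to act on YLL056C, had late means of -0.14 in the YAP1 deletion, 0.03 in the PDR1 deletion and -0.14 in WT, and was called in none of these. YAP1 itself stayed between -0.25 and 0.19 in the PDR1 deletion and between -0.18 and 0.40 in WT.

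Relatives of 3 of the genes could be compared with them. The paralogs YGR035C of CIS1 and YJR015W of SNG1, and CHA1, the catabolic serine deaminase related to SDL1, had mean WT responses of 0.11, -0.07 and 0.08 over 2 to 20 min, and none of the 3 passed in any comparison. YGR035C read 0.69 at 10 min in WT, where CIS1 read 3.84. HBN1, related to FRM2, and YDR132C, related to YLR108C, were not analysed here.

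Of the 18 genes next to the 9 on their chromosomes, 17 were on the arrays and 13 had WT values at both 10 and 20 min, and 0 of these 13 reached 2-fold at both times; the WT values of all neighbours at these times lay between -0.31 and 2.12. YKL070W, which lies downstream of OSI1 on the same strand, had 0.08 and 0.34 at 10 and 20 min in the YAP1 deletion, no values in the PDR1 deletion, and 0.35 and 2.12 in WT, with 1.70 at 40 min. AHP1, the thiol peroxidase gene that diverges from YLR108C, had 0.07 and 0.55 in the YAP1 deletion, 0.28 and 0.37 in the PDR1 deletion, and 0.40 and 0.66 in WT. AGP1, upstream of FRM2, had 0.37 and 0.12 in the YAP1 deletion, 0.96 and 1.19 in the PDR1 deletion, and 0.35 and 0.55 in WT, with 2.00 at 40 min, when FRM2 had 2.96.

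The 9 genes followed each other over the 16 arrays with Pearson correlations of 0.646 (OSI1 with YLR108C) to 0.970 (FRM2 with YLL056C), median 0.815 over 36 pairs. These are descriptions: the arrays share strains and times, and the genes were chosen for a like pattern. Among 4231 other features with values on at least 14 arrays, the nearest to the mean of the 9 was YCR102C (0.983), followed by GRE2 (0.981), the glutathione transferase GTT2 (0.981), YLR460C (0.979) and YGL114W (0.972). FRM2 was closest to YLR460C (0.987), YLL056C to GTT2 (0.991), SDL1 to DRE2 (0.964), which acts in cytosolic iron-sulphur assembly, SNG1 to YCR102C (0.956), and AFG1 to RIB3 (0.942), a gene of riboflavin synthesis. RIB3 was also the nearest named gene to OSI1 (0.976), with the aryl-alcohol dehydrogenase gene AAD6 next (0.966). YLR108C (0.848 with YGL114W), CIS1 (0.846 with the isomaltase gene IMA4) and LTO1 (0.936 with IMA4) had the lowest best matches.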

How the data were processed

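Expression was measured on 2-channel spotted arrays, 16 in all. The authors deposited 1 column of log ratios per array; the method of normalisation, background correction, dyes and any pooling of hybridisations are not given in the sources used here. The deposited values were read as log2 ratios because the PDR1 deletion ratios small enough to be checked fall on a grid of linear ratios in base 2. No such grid settles the base of the WT and YAP1 deletion arrays, for which base 2 is assumed. If the channels ran the other way, all signs would be reversed. The deposited files hold no signal or depth, so the precision is limited by the number of arrays.

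Of 6338 probes, 5628 had a gene name; probes of 1 gene were averaged (17 genes), and symbols were updated through RefSeq. No coordinates are printed, because the build of the platform is not given. Strains were compared with limma 3.58.1 in R 4.3.3 on 12 arrays (2, 4, 10 and 20 min), fitting strain effects with time as the block, over the 4324 features with at least 3 of 4 values in every strain, at an adjusted p under 0.05. Differences from WT are not tested for the 9 genes, which were chosen on WT values, although such a test was planned. A second model gave each strain its own mean at 2 and 4 min and at 10 and 20 min. The fit was tested on simulated data with a capped spread and a shift held constant over time. That test does not cover responses that grow with time, such as most of those of the 9 genes. Genes other than the 9 were named as relatives, chromosomal neighbours, the 3 highest and 3 lowest of each list by the compared value, and the 3 nearest in pattern to each gene (5 to the mean); RIB3 and AAD6 for OSI1 follow an unnamed probe. The 9 genes and the lists were chosen with earlier results of these data known. Promoter and protein sequences were not used here. Alternatives varied the centring and scaling, the block, the 30 s arrays, the filter on missing values, a trend along probe numbers, the samples sharing the spread and each time left out.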

Additional observations from a re-analysis of the deposited data

Results flagged for a closer look

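AFG1 had opposite signs in the YAP1 deletion and in WT on every array from 2 to 20 min: the 4 YAP1 deletion arrays were below 0 and the 4 WT arrays above it, with a mean difference, YAP1 deletion minus WT, of -1.35 on the log2 scale. The YAP1 deletion values were small, from -0.21 to -0.08, and the share of all features that meet this rule on signs was not counted. Among the genes described, only YLR108C and LTO1 had smaller mean differences. The difference was not tested, because these arrays were used to choose the gene.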

How the results depend on the processing

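Times stood in for replicates, so leaving out each time, and dropping time as the replicate block, were the main checks. Features called up in the PDR1 deletion numbered 121, and 78 with scaled arrays, 59 with no replicate block, 382 with the 30 s array subtracted, 3 with only the PDR1 deletion arrays, 59 without its array at 2 min (added after seeing the data), and 21 to 109 without each time. At 10 and 20 min they numbered 90, and 275 with the 30 s array subtracted and 46 to 84 without each time. PDR1 deletion minus WT called 0 lower, 171 with the 30 s array subtracted and 1 with the probe trend removed. At 10 and 20 min it called 8, and 4 when scaled, 14 with no replicate block, 22 with the 30 s arrays included, 115 with them subtracted, 3 with all 4 values required and 3 to 26 without each time. Its change from early to late called 6, and 1 when scaled, 3 with all 4 values, 1 without the PDR1 deletion array at 2 min and 1 to 8 without each time. By construction, subtracting the 30 s array puts its error into every array of a strain; the other causes were not tested.

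Among the 9 genes, signs of PDR1 deletion minus WT that turned were AFG1 (0.029, 30 s subtracted), FRM2 (0.13) and YLL056C (0.0601) without the 2 min PDR1 deletion array, and CIS1 for the change from early to late (0.0310 when scaled). Without each time the difference ran from -0.54 to 0.59 for FRM2, -0.0673 to 0.34 for SDL1, -0.63 to 0.24 for YLL056C and -0.37 to 0.10 for YLR108C; at 10 and 20 min from -2.43 to 0.06 for FRM2 and from -2.05 to -0.42 for CIS1; and the change from early to late from -1.39 to 0.25 for CIS1. Without the replicate block 6 of the 9 genes were called in the PDR1 deletion, in place of 8, and OSI1 (adjusted p = 0.0899) and YLL056C (adjusted p = 0.0765) were lost; scaling ended the late call of CIS1 (adjusted p = 0.0574). At a threshold of 0.5, 2 genes had a start in the YAP1 deletion, against 0 at 1. The motif search in promoters was not run.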
